A study of Mus musculus with 2 samples.

Results

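The fibrillar collagen genes Col1a1 (ENSMUSG00000001506), Col1a2 (ENSMUSG00000029661), Col3a1 (ENSMUSG00000026043), Col5a1 (ENSMUSG00000026837), Col5a2 (ENSMUSG00000026042) and Col5a3 (ENSMUSG00000004098) were followed through the cells of healthy and injured mouse liver. They were chosen by name and matched between the files by Ensembl identifier, and are 6 of the 30406 genes on the lists of both libraries. The study asked how chronic injury by carbon tetrachloride (CCl4), a toxin that hepatocytes activate, alters liver cells, and it counted mesenchymal transcripts in hepatocytes. Both groups were Col1a2CreER:Rosa26tdTomato mice on a C57BL/6 background, aged 8 to 10 weeks at the start, a tracing model in which Cre is driven by the Col1a2 promoter, although neither transgene is on the gene lists of the files. The CCl4 group received the toxin for 12 weeks and the other group was healthy. After perfusion with pronase and collagenase, cells were purified over a Nycodenz gradient. The methods add a depletion of CD45-positive immune cells. Each group was 1 droplet library of an unstated number of mice, so no test between groups was possible and every difference below lacks a replicate check.

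Fibrillar collagens are secreted chains that wind around each other and line up outside the cell as banded fibrils. Type I collagen, the main fibril of scars, is built from the chains of Col1a1 and Col1a2, with more of the former. Type III collagen consists of Col3a1 chains and is abundant in young, pliable matrix. Type V collagen, from Col5a1, Col5a2 and in some tissues Col5a3, lies inside type I fibrils and is needed to start them and to limit their width. In the liver, hepatic stellate cells and portal fibroblasts turn into matrix-making myofibroblasts during chronic injury, and the organ is covered by mesothelial cells.

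The 250 bases before the start given in the RefSeq promoter table are shown for the members with an entry there (GRCm38.p6). The reason is that the levels of most members, background RNA included, followed each other over the cell clusters while their start regions read very differently. An entry was found for 4 of the 6, and Col1a1 and Col5a2 are named only. The windows are chr6:4505368-4505617 on the plus strand for Col1a2, chr1:45311288-45311537 plus for Col3a1, chr2:27886175-27886424 plus for Col5a1 and chr9:20815068-20815317 minus for Col5a3. Of these bases, 44 of the Col5a1 and 50 of the Col5a3 window lie inside the gene's outer RefSeq bounds, so that the table's start is not the outermost one, and 1 GC box of Col5a3, 41 to 36 bases before the start, is among them. Capitals mark the CCAAT box (CCAAT), the GC box (GGGCGG, or CCGCCC where it lies on the other strand) and the TATA box (TATAAA), searched on both strands, and none of the matches overlap.
Col1a2: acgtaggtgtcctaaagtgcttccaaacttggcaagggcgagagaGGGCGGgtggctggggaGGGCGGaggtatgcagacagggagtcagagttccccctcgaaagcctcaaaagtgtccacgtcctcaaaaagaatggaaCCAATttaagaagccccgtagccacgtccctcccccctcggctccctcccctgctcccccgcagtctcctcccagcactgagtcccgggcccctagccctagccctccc
Col3a1: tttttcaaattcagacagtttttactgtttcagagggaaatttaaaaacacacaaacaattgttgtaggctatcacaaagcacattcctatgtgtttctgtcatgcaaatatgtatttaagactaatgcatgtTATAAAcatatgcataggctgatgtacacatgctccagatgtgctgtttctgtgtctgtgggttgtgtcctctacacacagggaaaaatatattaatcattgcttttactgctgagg
Col5a1: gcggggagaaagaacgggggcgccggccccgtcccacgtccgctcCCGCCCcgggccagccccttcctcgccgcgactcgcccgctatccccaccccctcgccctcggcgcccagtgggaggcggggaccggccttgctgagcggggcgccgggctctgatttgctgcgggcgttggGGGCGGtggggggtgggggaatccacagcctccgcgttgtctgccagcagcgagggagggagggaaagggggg
Col5a3: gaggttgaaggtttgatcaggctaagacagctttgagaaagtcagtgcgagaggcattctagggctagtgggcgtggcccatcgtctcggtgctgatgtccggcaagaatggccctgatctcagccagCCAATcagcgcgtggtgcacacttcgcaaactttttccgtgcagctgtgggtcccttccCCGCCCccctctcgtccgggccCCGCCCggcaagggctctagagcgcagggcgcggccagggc

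G and C made up 76.4% of the Col5a1 window, 62.8% for Col5a3, 62.0% for Col1a2 and 35.2% for Col3a1. A GC box was present in the windows of Col1a2, Col5a1 and Col5a3, which is 3 of 4, against 32.7% of all 32851 windows of the table. CCAAT lay 109 to 105 bases before the start of Col1a2 and 122 to 118 before that of Col5a3, and was found in 33.8% of all windows. TATAAA was in the Col3a1 window alone, 117 to 112 bases before the start, and in 12.4% of all windows. A match describes letters and not a bound factor.

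The unit throughout is the UMI (unique molecular identifier), a barcode that marks a single captured RNA molecule. Because the assay reads the 3′ end, a molecule counts the same whatever its length, and levels are given as CPM, the UMIs of a gene relative to all UMIs of the same cells, such that 10000 CPM are 1% of them. After filtering, 5602 of 6297 healthy and 7314 of 8460 CCl4 cells remained, at medians of 6783.5 and 11876 UMIs, and the libraries shared 10 barcodes. Brackets hold 95% intervals, which cover counting error only. Clustering without the fibrillar collagen genes gave 24 clusters, and nearly every cluster came from 1 library, so that cell type, library and injury cannot be told apart in most of them. The labels call the samples whole liver cells and the series text speaks of hepatocytes, but only 5.84% of healthy and 4.5% of CCl4 cells were hepatocyte-like. Endothelial-like cells were 62.7% of the healthy cells, and mesenchymal-like cells, the pool of stellate-like and fibroblast-like clusters with a Tagln-led cluster, were 54.4% of the CCl4 cells (3980) and 0.214% of the healthy cells (12).

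The 6 genes held 768222 UMIs in the CCl4 library and 6704 in the healthy library. Col3a1 was the most counted member in each, with 452304 and 3869 UMIs. Col1a1 followed in the CCl4 library with 241456 UMIs, but in the healthy library, where it had 667, it came after Col5a2 with 1590. Col5a2 had 38570, Col5a1 23518, Col1a2 9698 and Col5a3 2676 UMIs in the CCl4 library. The rarest member in the healthy library was Col5a3 with 40, after Col5a1 with 170 and Col1a2 with 368. Since the cell makeup of the libraries was so unlike, these totals say little about any cell type, and the members are described by class.

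In the CCl4 library, mesenchymal-like cells held 92.6% [92.6, 92.7] of the UMIs of the 6 genes. Their share was 93.8% for Col3a1, 93.3% for Col5a3, 92.4% for Col1a1 and 92.3% for Col5a1, and was lower for Col5a2 (83.7%) and Col1a2 (81.4%). Mesothelial-like cells, 12.1% of the cells, held 3.35% of all member UMIs but 12.4% of those of Col5a2 and 11.6% of those of Col1a2. Within the mesenchymal-like cells, the Tagln-led cluster 13 (also led by Acta2, Postn and Tnc, genes of contractile matrix-making cells) held 26.0% of the library's member UMIs with 9.91% of its cells. The stellate-like cluster 18 held 23.6% with 12.1% of the cells, and cluster 17, led by Dpep1, Thbs4 and Mfap4 with 5 fibroblast and 5 stellate markers, held 22% with 17.5%.

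In the healthy library the collagen UMIs lay elsewhere. Mesothelial-like cells were 4.12% of the cells and held 71.7% [70.6, 72.8] of the member UMIs, among them 90.5% of those of Col3a1, 78.8% of Col5a1, 76.5% of Col1a1 and 72.6% of Col1a2. Col5a2 and Col5a3 did not follow this. Endothelial-like cells held 73.1% [70.9, 75.3] of the Col5a2 UMIs, and hepatocyte-like cells held 22 of the 40 Col5a3 UMIs.

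**Figure D1:**
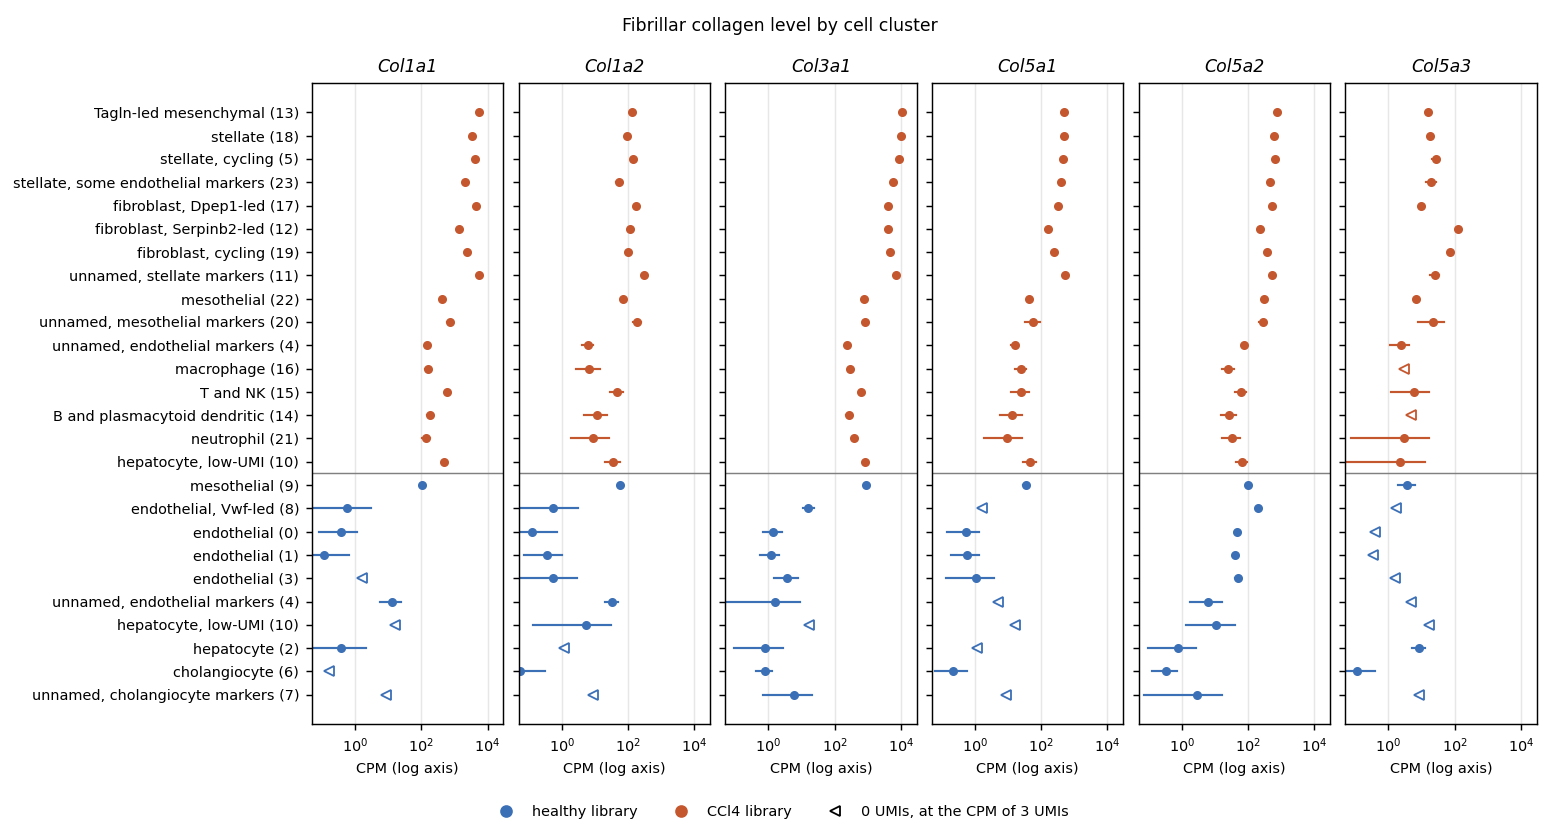
Level of each fibrillar collagen gene in the cell clusters with at least 20 cells of a library, as CPM on a log axis, with 95% counting intervals as horizontal lines; orange points are the CCl4 library and blue points the healthy library, numbers in brackets are cluster numbers, and open triangles mark 0 UMIs at the CPM of 3 UMIs. Col1a1 and Col3a1 are above 1000 CPM in the 7 mesenchymal-like clusters and in cluster 11 of the CCl4 library and at 424 and 753 CPM in CCl4 mesothelial-like cells, while Col5a2 is the member seen in healthy endothelial-like clusters and Col5a3 peaks in cluster 12.

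Over all mesenchymal-like cells of the CCl4 library the level was 6878 CPM [6857, 6898] for Col3a1 and 3618 CPM [3603, 3633] for Col1a1. Col5a2 followed with 523 CPM, Col5a1 with 352, Col1a2 with 128 [125, 131] and Col5a3 with 40.5 [38.9, 42.1]. Together the 6 genes gave 11539 CPM. The order by counted level thus did not pair the chains of type I collagen, since Col1a2 lay below both main type V chains. Col1a2 was counted in another proportion to Col1a1 in the healthy library, as given below. Library, software and injury cannot be told apart in that difference.

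The type I chains differed among the mesenchymal-like clusters. For Col1a1 the order was cluster 13 with 5613 CPM, cluster 17 with 4371 [4340, 4402], the cycling stellate-like cluster 5 with 4163 [4089, 4238], cluster 18 with 3485, the cycling fibroblast-like cluster 19 with 2411 [2361, 2461], cluster 23 with 2043 [1978, 2110] and the Serpinb2-led fibroblast-like cluster 12 with 1400. No counting intervals of neighbours in this order overlapped, though clusters of 1 library are no replicates. Cluster 23 had 10 stellate and 4 endothelial markers. Its summed CPM over the 16 endothelial markers was 5385, against 1062 in cluster 5, 535 in cluster 18 and 35.3 in cluster 12. The part of this difference in its collagen levels was not tested. Col1a2 had another order, with 170 CPM in cluster 17, 141 [128, 155] in cluster 5, 130 [124, 137] in cluster 13, 118 [112, 124] in cluster 12, 101 [91.1, 112] in cluster 19, 92 [86.7, 97.6] in cluster 18 and 54.9 in cluster 23. Several neighbours there overlapped in their counting intervals.

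Col3a1 was highest in cluster 13 (11156 CPM) and cluster 18 (10259 CPM), and the lowest of these clusters were 17 (4202 CPM [4172, 4232]) and 12 (4007 CPM [3972, 4043]). Cluster 17 was the only mesenchymal-like cluster in which Col1a1 matched it, with 0.96 Col3a1 UMIs per Col1a1 UMI [0.952, 0.971]. The same ratio was 1.96 in cluster 19, 1.99 in 13, 2.06 in 5, 2.81 in 23, 2.86 in 12 and 2.94 [2.91, 2.98] in cluster 18. Lrat, a retinoid enzyme gene of stellate cells, was 593 CPM in cluster 18, 319 in cluster 13, 89.9 in cluster 17 and 2.96 in cluster 12, so it did not order the clusters by this ratio. Acta2, the smooth muscle actin gene of myofibroblasts, was lowest in the clusters with the highest ratios, at 142 CPM in cluster 12, 178 in 23 and 309 in 18. It was 384 CPM in cluster 19, 765 in 17, 875 in 5 and 1229 in 13. Among these latter clusters it did not follow the ratio, which was lowest in cluster 17.

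Of the type V chains, Col5a1 and Col5a2 kept close to each other in these cells. The ratio of Col5a2 to Col5a1 UMIs was 1.49 over all mesenchymal-like cells and ranged from 1.15 in cluster 23 to 1.70 in cluster 17. Col5a1 was highest in cluster 18 (484 CPM [472, 497]) and cluster 13 (469 [457, 482]), whose intervals overlapped, and lowest in cluster 12 (162). Col5a3 went the other way. It was 124 CPM [118, 130] in cluster 12, where every other member but Col1a2 was at its lowest, and 71.2 [62.9, 80.3] in cluster 19, against 27.1 in cluster 5, 19.4 in 23, 17.7 [15.5, 20.3] in 18, 16.1 [13.8, 18.6] in 13 and 9.91 in 17. Cluster 12, with 8.39% of the cells of the CCl4 library, held 57.8% [56.0, 59.7] of its Col5a3 UMIs, and 59.0% of its droplets had at least 1, against 10.5% in cluster 17. At median depths of 20295.5 and 13668 UMIs, depth also differed between these clusters.

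Single droplets of mesenchymal-like cells varied widely. Their total over the 6 genes had a median of 144 UMIs, with 37 at the lower and 365 at the upper decile and 1122 at the highest. The median was 84 for Col3a1, 42 for Col1a1, 7 for Col5a2, 4 for Col5a1, 1 for Col1a2 and 0 for Col5a3. As a share of the UMIs of a droplet the 6 genes had a median of 0.986% and reached 10.2%. At least 1 UMI was found in 99.4% of these droplets for Col3a1, 98.6% for Col1a1, 95.3% for Col5a2, 92.4% for Col5a1, 71.6% for Col1a2 and 22.8% for Col5a3. Most droplets held several members together: 5 of the 6 were seen in 2208 droplets (55.5%), all 6 in 667 (16.8%), and none in 4.

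**Figure D2:**
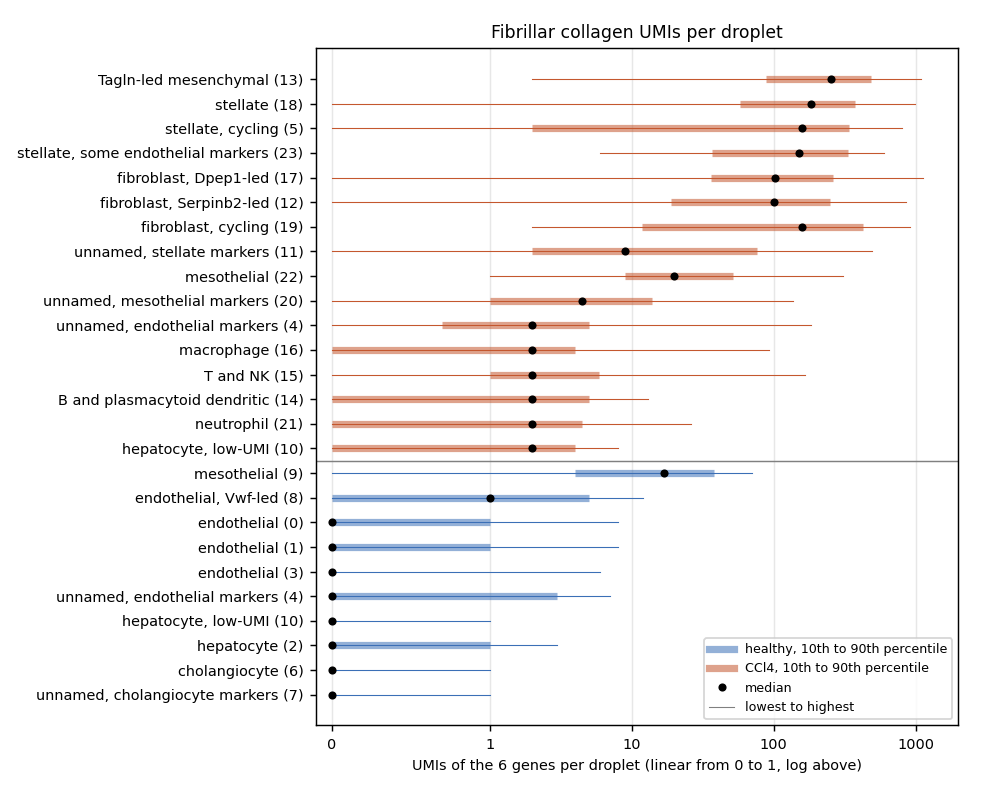
UMIs of the 6 genes per droplet in each cluster with at least 20 cells (axis linear from 0 to 1 and log above), with the median as a point, the 10th to 90th percentile as a thick bar and the lowest to highest droplet as a thin line. Medians run from 100 to 254 in the 7 mesenchymal-like clusters, are 20 and 17 in the mesothelial-like clusters of the CCl4 and healthy libraries, and are 2 in the immune-like and hepatocyte-like clusters of the CCl4 library.

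The spread was not even among the clusters. The median was 254 UMIs per droplet in cluster 13, 183.5 in cluster 18, 159 in cluster 5, 158 in cluster 19, 151 in cluster 23, 102 in cluster 17 and 100 in cluster 12. In cluster 5 the lower decile was 2 UMIs, equal to the median of the immune-like droplets, against 88.4 in cluster 13 and 57.7 in cluster 18. The unnamed cluster 11 (857 CCl4 cells, median 1357 UMIs) had 8 stellate markers but was led by globin genes. Its 6 genes gave 14105 CPM, between clusters 18 and 5, with 5352 CPM of Col1a1 and 7349 of Col3a1, but because its droplets were shallow the median was 9 UMIs, with 76.4 at the upper decile.

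Within a cluster, cells with a larger share of Col1a1 also tended to have a larger share of Col3a1. Spearman's rho between their shares of a cell's UMIs was 0.86 over the 888 cells of cluster 18 and 0.84 over the 85 of cluster 23, then 0.76 in cluster 19, 0.72 in 13, 0.70 in 17, 0.68 in 5 and 0.53 in cluster 12. These are descriptions over cells of 1 library, which share its depth and preparation. In clusters of immune-like and other cells with few collagen UMIs the value was lower, with 0.05 in clusters 14 and 15, 0.10 in cluster 16, 0.04 in cluster 4 and 0.18 over the 320 cells of the hepatocyte-like cluster 10. It was 0.29 over the 882 CCl4 cells of mesothelial-like cluster 22 and 0.14 over the 228 healthy cells of cluster 9.

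Set against cells of the same library that are not known to make collagen, all 6 members were at least 2-fold higher in the mesenchymal-like cells, where 26.4% of 12884 genes were at least 2-fold higher and 17.8% at most 0.5 times. The comparison cells, called the reference here, were the 330 T and NK, B and plasmacytoid dendritic and neutrophil-like cells. The ratio of CPM was 22.1 [14.7, 34.9] for Col5a1, 16.4 [15.2, 17.8] for Col3a1, 14.6 [5.70, 53.7] for Col5a3, 13 [10.1, 17.2] for Col5a2, 11.6 [10.5, 12.7] for Col1a1 and 5.61 [3.99, 8.15] for Col1a2. The median log2 ratio of the members was 3.79 and that of all genes 0.23. Because the reference cells were shallower, their background weighs more as CPM than per droplet. Per droplet the 6 genes gave 178.8 UMIs in mesenchymal-like cells and 3.56 [3.36, 3.77] in the reference, a ratio of 50.2 [47.4, 53.2]. It was 82.6 [76.7, 89.1] without the reference droplets of more than 10 member UMIs, 76.1 with a mitochondrial limit of 10% and 15.2 with likely doublets kept.

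Genes that act with the fibrillar collagens were mostly higher in the mesenchymal-like cells as well. Of the 6 genes for fibril-associated and beaded-filament collagens, 6 were at least 2-fold higher, from 10.2-fold for Col16a1 to 26.4-fold for Col14a1, whose product decorates fibrils. Of 12 genes for folding and secretion of procollagen 11 were, led by P3h1, a prolyl hydroxylase (33.6-fold [9.30, 278], 2 reference UMIs), and all but Mia3 (1.16-fold), a gene for loading large cargo at the endoplasmic reticulum. Of 8 genes for processing and crosslinking 7 were, with Adamts2, which trims procollagen, at 21.3-fold and Pcolce2 (4.24-fold [0.751, 168], 1 reference UMI) not called. Of 6 collagen uptake and receptor genes 4 were, with the uptake receptor gene Mrc2 at 20.5-fold, and 1, the integrin gene Itga2, was at 0.368 times. Of 8 cell cycle genes 6 were, among them Ccnb1 (8.13-fold [2.24, 67.3], 2 reference UMIs) and Cenpf (6.55-fold). Top2a (1.08-fold) and Mki67 (1.32-fold) were not called.

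Of the other fibrillar collagen genes, Col27a1 had 5713 UMIs in the CCl4 and 2525 in the healthy library, and Col24a1 had 911 and 0. Of 4 that could be compared with the reference, Col27a1 (19.2-fold [8.83, 52.4]) and Col24a1 (4.75-fold [1.85, 17.5]) were higher, Col11a2 was at 0.145 times [0.0560, 0.478] from 31 and 5 UMIs, and Col11a1 had 146 UMIs against 0. Col2a1, the collagen of cartilage, had too few UMIs to compare. Col24a1 shared the peak of Col5a3, with 44.8 CPM [41.2, 48.7] in cluster 12 and 25.5 [20.7, 31.1] in cluster 19. Col27a1 was not tied to mesenchymal-like cells. It was 142 CPM [137, 148] in cluster 17, but also 95.2 CPM [90.8, 99.8] in the healthy cholangiocyte-like cells, where the 6 members together gave 1.51 CPM.

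A few collagen UMIs were found in most droplets of several other clusters of the CCl4 library. The median was 2 UMIs of the 6 genes per droplet in each of the clusters of T and NK (15), B and plasmacytoid dendritic (14), neutrophil (21), macrophage (16), low-UMI hepatocyte (10) and cholangiocyte-like cells (6), and in the unnamed cluster 4 with endothelial markers. At least 1 UMI was in 84.5% [80.2, 88.3] of the reference droplets (median depth 3725 UMIs) and in 99.9% of the mesenchymal-like ones (14590.5 UMIs). When every droplet was thinned to 2000 UMIs these shares were 62.5% [56.7, 68.1] (35 droplets left out) and 99.5% [99.2, 99.7] (96 left out). The presence of a UMI of these genes thus separated the cell types of the CCl4 library poorly. In the healthy library the background was far lower, with 27 UMIs in 1265 cholangiocyte-like droplets, or 0.0213 [0.0141, 0.0311] per droplet.

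The reference mean of 3.56 rested on few droplets. Of its 330 droplets, 8 held more than 10 member UMIs, and they had 478 of the 1175 UMIs. A T and NK-like droplet held 167, of which 96 were Col1a1, 64 Col3a1, 3 Col1a2, 3 Col5a1 and 1 Col5a2, among 7428 UMIs in all. The other 7 held 101, 76, 47, 32, 26, 16 and 13. Without these 8 the mean was 2.16, with a mitochondrial limit of 10% it was 2.34, and with the likely doublets kept 11.9. In T and NK-like droplets the 14 stellate markers, of which 12 had a UMI, summed to 291 CPM and the 14 fibroblast markers to 446 CPM, next to 4341 CPM of the 11 T and NK markers.

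Hepatocyte-like droplets of the CCl4 library, the cells the study asked about, held fewer collagen UMIs per droplet than the reference. They were 329 (320 of them in low-UMI cluster 10, with 3385 CPM of Alb and all 15 hepatocyte markers present), with a median depth of 898 UMIs, and had 665 member UMIs, or 2.02 [1.87, 2.18] per droplet. None held more than 8. Of these droplets 46 (14.0%) had 0, 98 (29.8%) had 1, 80 (24.3%) had 2 and 57 (17.3%) had 3, and the reference droplets had 51 (15.5%), 87 (26.4%), 75 (22.7%) and 53 (16.1%). The ratio per droplet to the reference was 0.568 [0.515, 0.625], or 0.934 [0.838, 1.04] once droplets with more than 10 member UMIs were left out of both, and 0.912 with the mitochondrial limit at 10%.

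**Figure D3:**
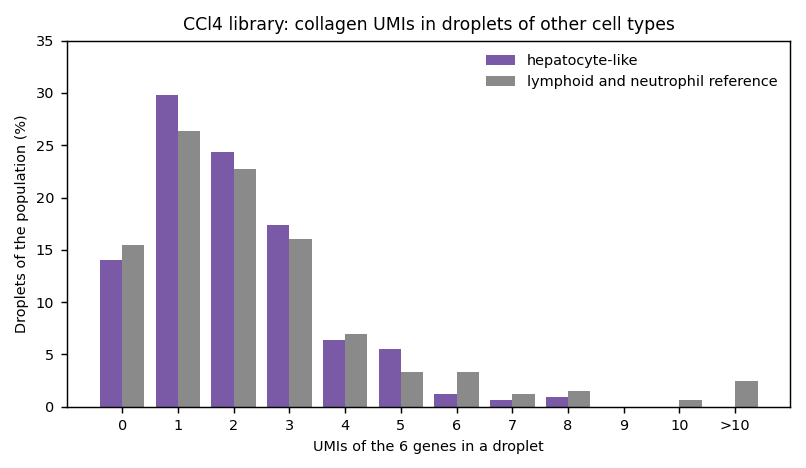
Percent of droplets (vertical axis) by the number of UMIs of the 6 genes they held (horizontal axis) in the CCl4 library, for 329 hepatocyte-like droplets (purple) and the 330 reference droplets (grey). Both peak at 1 UMI, in 29.8% and 26.4% of droplets, and the bin above 10 UMIs holds reference droplets alone.

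The members gave ratios per droplet of 0.488 [0.414, 0.575] for Col1a1, 0.623 [0.547, 0.710] for Col3a1, 0.519 [0.322, 0.820] for Col5a2 and 0.916 [0.482, 1.73] for Col5a1. Without droplets of more than 10 member UMIs they were 0.944 [0.781, 1.14], 0.913 [0.791, 1.05], 0.753 [0.452, 1.24] and 1.47 [0.712, 3.12] in the same order, and each of these intervals includes 1. Hepatocyte-like droplets had a UMI of Col3a1 in 67.8% of cases and of Col1a1 in 44.7%, against 63.6% and 49.4% of the reference droplets. Their shares of the 2 main members were close to those of the mesenchymal-like cells, with 56.5% Col3a1 and 33.1% Col1a1 against 59.6% and 31.4%. Col1a2 differed, with 12.9 [7.90, 22.6] Col1a1 UMIs per Col1a2 UMI against 28.3 [27.6, 28.9] in mesenchymal-like cells. The reference had 13.7 [9.61, 20.1]. The direction turned when the UMIs were taken as a share of all UMIs, since a hepatocyte-like droplet was shallower: the ratio to the reference was then 1.66 [1.50, 1.82]. Thinned to 2000 UMIs, 58.6% [44.5, 71.7] of the 55 hepatocyte-like droplets deep enough had a member UMI, against 62.5% of the reference. In the healthy library 327 hepatocyte-like droplets held 30 member UMIs, or 0.0917 [0.0619, 0.131] per droplet.

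Some cells with a background-like total still had more UMIs of 1 member per droplet than the reference. In the unnamed cluster 4 of the CCl4 library, which had 14 endothelial markers and was led by globin genes, the 6 genes gave 0.922 [0.858, 0.991] of the reference per droplet, but Col5a2 gave 2.87 times as much [2.17, 3.87], with 0.505 against 0.176 UMIs. Col5a2 was 15.4% of the member UMIs there and 4.54% in mesenchymal-like cells. These droplets were deeper (median 6539 UMIs) than the reference, but thinned to 2000 UMIs a Col5a2 UMI was still seen in 12.4% [9.80, 15.4] of them against 5.80% of the reference. In macrophage-like cells Col5a1 gave 2.0 times the reference per droplet [1.09, 3.69], on 25 UMIs against 23. The 6 genes together gave 0.816 [0.734, 0.905]. Macrophage-like droplets were also deeper (median 4923 UMIs) than the reference (3725), and 5 of the 179 held more than 10 member UMIs, 177 in all. Col5a1 is not given here at equal depth or without those 5. Without droplets of more than 10 member UMIs, the 6 genes gave 1.97 UMIs per droplet in macrophage-like cells and 2.16 in the reference. Cluster 4 then gave 2.38, which was above the reference. There were 2.74 [1.95, 3.92] Col3a1 UMIs per Col1a1 UMI in neutrophil-like cells and 1.72 [1.45, 2.05] in the hepatocyte-like cells of cluster 10. T and NK-like cells had 1.08 [0.917, 1.27], and 1.68 [1.26, 2.25] without droplets of more than 10 member UMIs.

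In the healthy endothelial-like cells, Col5a2 made up most of the UMIs of the 6 members. It had 1163 UMIs in 3513 cells, or 58.0 CPM [54.8, 61.5], against 2.84 CPM for Col3a1, 0.549 for Col5a1, 0.299 for Col1a2 and 0.250 for Col1a1, and 0 UMIs for Col5a3, which allows up to 0.150 CPM (3 UMIs). Its share was 93.6% of the member UMIs, and there were 106 Col5a2 UMIs per Col5a1 UMI. The level was 46.5 CPM in cluster 0, 40.9 in cluster 1 and 49.1 in cluster 3, which have the markers of sinusoidal cells such as Stab2 and Clec4g. It was 200 CPM [180, 221] in cluster 8, which was led by Ccl21a and Vwf, genes of lymphatic and larger blood vessels. Col27a1, a fibrillar collagen gene that is no member, was 38 CPM [33.8, 42.6] in cluster 0, 32.4 [28.7, 36.4] in cluster 1 and 45.3 [36.2, 56.1] in cluster 3, and 3.90 CPM [1.57, 8.05] in cluster 8. A Col5a2 UMI was in 59.1% of the cluster 8 droplets (median depth 8373 UMIs) and in 0.474% of the cholangiocyte-like droplets (median depth 11689 UMIs). Col1a1 and Col1a2 were at 0.558 CPM each in cluster 8. The 14 fibroblast markers summed to 1193 CPM in cluster 8 and to between 54.4 and 190 CPM in the other 3. Their part in the collagen levels was not tested.

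Col3a1 was 16.2 CPM [10.8, 23.2] in cluster 8, on 29 UMIs in 10 of its 208 droplets, and so was also above the 0.780 CPM [0.427, 1.31] of the cholangiocyte-like cells. The gene lies next to Col5a2 in the RefSeq annotation, yet across the healthy endothelial-like cells Col5a2 had 1163 UMIs and Col3a1 57.

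Col5a3 was found in healthy hepatocyte-like cells at a low level. Cluster 2, with 197 hepatocyte-like cells, had 22 UMIs, or 8.51 CPM [5.34, 12.9], while the cholangiocyte-like cells, with more UMIs per droplet, had 2 UMIs or 0.111 CPM [0.0135, 0.403]. Col1a2 and Col5a1 had 0 UMIs in cluster 2, Col1a1 1, and Col3a1 and Col5a2 2 each. Ordered by depth, the shallowest 50 cells had 1 Col5a3 UMI, the next 49 had 1, the next 49 had 2 and the deepest 49 (median 42254 UMIs) had 18, which are 8.87, 5.15, 5.47 and 9.42 CPM. With 1 or 2 UMIs in each of the 3 shallower sets, no difference of level with depth was detectable. Of the 14 stellate markers 3 had a UMI in cluster 2, at 9.29 CPM in all, and of the 14 fibroblast markers 6, at 7.74 CPM. In the CCl4 hepatocyte-like cells Col5a3 had 1 UMI, against 4 in the reference.

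Mesothelial-like cells held fibrillar collagen UMIs in both libraries, with 231 healthy and 882 CCl4 cells, and were used to compare the members between healthy and injured liver. Col1a1 and Col5a2 were at least 2-fold higher in the CCl4 cells and no member was at most 0.5 times, that is 2 of 6, where 11.2% of 13230 genes were at least 2-fold higher and 14.7% at most 0.5 times. Col1a1 measured 133 CPM [122, 145] in healthy and 424 CPM [414, 434] in CCl4 cells, which is 3.19 times as much [2.92, 3.5]. Col5a2 was 99.2 CPM [89.5, 110] and 296 CPM [287, 304], a ratio of 2.98 [2.68, 3.32]. The ratio was 1.79 [1.04, 3.31] for Col5a3 on 15 and 113 UMIs, but 1.16 [0.659, 2.18] with a mitochondrial limit of 10%, 1.17 with at least 1000 UMIs per cell and 1.15 with 30 principal components. It was 1.22 [1.01, 1.48] for Col5a1, 0.998 [0.873, 1.15] for Col1a2 and 0.826 [0.796, 0.858] for Col3a1. With likely doublets kept, the ratio for Col3a1 turned to 1.28. The median log2 ratio of the members was 0.57, and that of all genes -0.04.

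The droplets showed the same picture. Col1a1 had a median of 1 UMI in the healthy and 6 in the CCl4 droplets, Col5a2 1 and 4, and Col3a1 12 and 7. The groups overlapped for every member, with Col1a1 running from 0 to 59 UMIs in the healthy and from 0 to 90 in the CCl4 droplets. The CCl4 cells held 7.76 Col1a1 UMIs per droplet against 1.37 in the reference, and the ratio for Col1a1 was 2.63 after subtracting the reference. The healthy and CCl4 cells lay in different clusters, 228 of the healthy cells in cluster 9 and all CCl4 cells in cluster 22, which was led by Prg4. The 3 healthy cells in cluster 22 held 32, 89 and 194 member UMIs and gave 109 of the 510 healthy Col1a1 UMIs. Against cluster 9 alone the ratio for Col1a1 was 4.0 [3.62, 4.43] and that for Col1a2 1.24 [1.07, 1.44].

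Markers moved along with this comparison. All 10 mesothelial markers had UMIs in both clusters, with a sum of 9424 CPM in cluster 9 and 4258 in cluster 22. The fibroblast markers summed to 7692 CPM in cluster 9 (11 of 14 with a UMI) and 1749 in cluster 22 (14 of 14), and the stellate markers to 431 and 387 CPM. Their part in the collagen ratios was not tested.

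Among the genes that act with collagen, Lox, whose enzyme crosslinks fibrils, was 25.8 CPM in the healthy and 177 CPM in the CCl4 mesothelial-like cells, a ratio of 6.88 [5.63, 8.49], and was the only one of 6 processing genes that was at least 2-fold higher. Pcolce, an enhancer of procollagen trimming (0.296), and Adamts2 (0.359) were lower. Of 12 folding genes, Crtap (2.28) and Fkbp10 (2.05) were higher and the prolyl hydroxylase genes P4ha1 (0.460) and P4ha2 (0.30) lower. Of 6 fibril-associated and beaded-filament genes, Col6a3 (4.09) was higher and Col14a1 (0.370) and Col12a1 (0.484) were lower. The receptor gene Mrc2 was at 0.248 times, the only call among 4 genes. Of 2 other fibrillar collagen genes compared, Col24a1 had 83 UMIs against 0 and was at least 6.58-fold higher, and Col27a1 was 1.38-fold. Of 4 cell cycle genes 1 was higher, Cdk1 with 153 UMIs against 3, a ratio of 12.1 [4.07, 59.5].

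The 12 healthy mesenchymal-like cells were too few to stand for their class and were themselves mixed. The 5 cells of stellate-like cluster 18 held 11, 15, 16, 19 and 24 member UMIs among 7120 to 12194 in all. In these 5 cells Col3a1 had 6, 8, 12, 9 and 16 UMIs and Col1a2 3, 3, 1, 4 and 4, but Col1a1 had 0 in 4 cells and 2 in the other. The 2 cells in cluster 13 held 10 and 71 member UMIs and the 2 in cluster 17 held 58 and 100, with 13 and 27 of Col1a1 in the latter. The 3 cells of cycling cluster 19, with 47350, 30151 and 42472 UMIs in all, held no UMI of any member.

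Over the 12 cells, 5 of the 6 members were at least 2-fold lower than in the 3980 CCl4 cells, where 8.54% of 8540 genes were at least 2-fold higher and 27.8% at most 0.5 times in the CCl4 cells. The ratio was 9.02 [7.22, 11.4] for Col1a1, 7.72 [6.65, 9.02] for Col3a1, 5.91 [3.69, 10.1] for Col5a2 and 4.22 [2.60, 7.39] for Col5a1. Col5a3 had 0 healthy UMIs, and its ratio was 2.59 with the 0 raised to 3 UMIs (lower 95% limit 2.10). Col1a2 went the other way, at 0.572 times [0.424, 0.791], with 224 CPM in healthy and 128 in CCl4 cells. The proportion of Col1a2 to Col1a1 differed between the libraries in other classes too, and library, software and injury cannot be told apart there. All 8 cell cycle genes were at most 0.5 times in the CCl4 cells, and 3 of the 12 healthy cells lay in cycling cluster 19. Those 3 cells held no member UMI among 47350, 30151 and 42472 UMIs, against 4212 to 12194 UMIs in each other cell of the 12. They thus lowered the healthy CPM of the members and raised the ratios above. The count of 5 called members thus holds for the 12 cells pooled, and how many would be called without these 3 was not tested. In cluster 18 the 6 genes had a median share of 0.197% of a droplet's UMIs in healthy and 1.40% in CCl4 cells. The share was 0.689% and 1.69% in cluster 13, but 1.44% and 0.776% in cluster 17.

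The chains of type I collagen were thus counted in different proportions in the libraries. There were 1.91 [1.64, 2.22] Col1a1 UMIs per Col1a2 UMI in the healthy mesothelial-like cells, 1.79 in the 12 healthy mesenchymal-like cells and 2.29 [1.44, 3.70] in the 14 healthy cells of cluster 11. In the CCl4 library the value was 6.11 [5.73, 6.51] in mesothelial-like cells and 28.3 [27.6, 28.9] in mesenchymal-like cells, from 11.8 [11.2, 12.5] in cluster 12 through 25.7 in cluster 17 and 37.9 in cluster 18 to 43.1 [40.9, 45.4] in cluster 13. Cluster 11 had 18 [16.5, 19.7] in the CCl4 library. The intervals of the libraries did not overlap in the mesothelial-like cells, the mesenchymal-like cells or cluster 11. The gene lists were written by different software versions, so library, software and injury cannot be told apart here. Col1a1 and Col1a2 shares of single cells had a rho of 0.32 in cluster 18 and 0.33 in cluster 13, well under that of Col1a1 and Col3a1, at a median of 1 Col1a2 UMI.

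**Figure D4:**
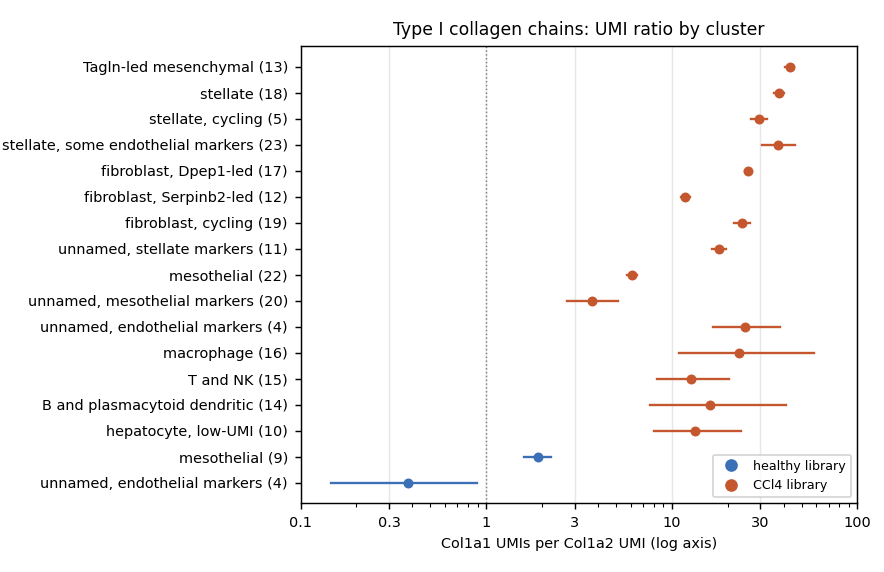
Col1a1 UMIs per Col1a2 UMI (log axis) in clusters with enough UMIs of both, with 95% counting intervals; orange points are the CCl4 library, blue points the healthy library, and the dotted line marks equal counts. The CCl4 clusters run from 3.72 in cluster 20 to 43.1 in cluster 13, and the healthy ones lie at 1.89 in mesothelial-like cluster 9 and at 0.381 in cluster 4.

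The mix of the 6 genes differed between mesenchymal-like and mesothelial-like cells of the CCl4 library, and between the mesothelial-like cells of the libraries. In CCl4 mesenchymal-like cells Col3a1 was 59.6% of the member UMIs, Col1a1 31.4%, Col5a2 4.54%, Col5a1 3.05%, Col1a2 1.11% and Col5a3 0.351%. In mesothelial-like cells Col5a2 took 18.6% and Col1a2 4.36% in the CCl4 library, while Col3a1 was 47.3%, and there were 6.93 [6.4, 7.52] Col5a2 UMIs per Col5a1 UMI. In the healthy mesothelial-like cells Col3a1 was 72.8%, Col1a1 10.6%, Col5a2 7.93% and Col1a2 5.55%. The unnamed cluster 20, with 10 mesothelial markers and shallow droplets, had a Col5a2 to Col5a1 ratio of 4.88 [2.82, 8.95], near that of the CCl4 mesothelial-like cells.

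**Figure D5:**
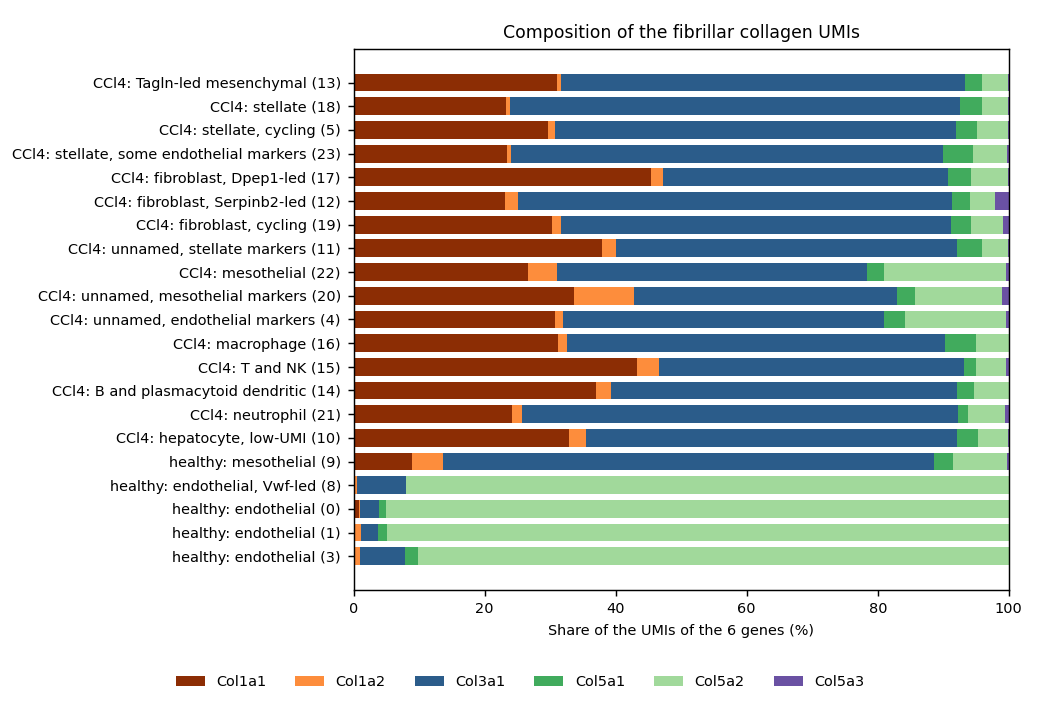
Share of each gene among the UMIs of the 6 fibrillar collagen genes (percent, horizontal axis) in clusters with enough member UMIs, with the library named before each cluster. Col3a1 (blue) and Col1a1 (dark red) fill most of each CCl4 bar, Col5a2 (light green) takes 18.6% in CCl4 mesothelial-like cells and over 90% in the healthy endothelial-like clusters, and Col5a3 (purple) shows in cluster 12.

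Over 25 points, the clusters with at least 50 cells in a library, Pearson's r of log2(CPM + 1) was 0.98 between Col1a1 and Col3a1, 0.97 between Col1a1 and Col5a1 and 0.94 between Col1a1 and Col1a2. Col5a2 (0.79) and Col5a3 (0.78) followed Col1a1 less closely, and each other least (0.65). The points share libraries and depth, so these values are descriptions. Points of the CCl4 library include immune-like and hepatocyte-like clusters with a median of 2 member UMIs per droplet. Background RNA was not subtracted, and its part in these values was not tested. Among 14249 genes, those most like Col1a1 were Cpxm1 (0.98), Hand2, Col6a2, Col6a1 and Pdgfrb, the growth factor receptor gene of stellate cells (each 0.95 to 0.96). Those most like Col3a1 were Col6a1 (0.97), Cpxm1, Col14a1, Pde3a and Dcn (0.96 each). For Col5a3 they were Tpm2 and Gli3 (0.88 each), Steap4 and Pdzrn3 (0.85 each) and Angptl4 (0.85), none of them shared with the other lists.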

How the data were processed

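Single liver cells of 1 healthy and 1 CCl4 library were analysed from the deposited matrices, which hold whole-number UMI counts per gene and called cell without normalization, as the authors' pipeline wrote them. The file headers name Cell Ranger 3.1.0 (healthy) and 6.0.1 (CCl4). The submitters' notes list a mouse and a human genome build with no role, and the gene identifiers are mouse. The library protocol is labelled single cell 3′ chemistry of the second version. Total counts were 51122846 (healthy) and 97611831 (CCl4).

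Cells with at least 500 UMIs, 200 genes and at most 30% mitochondrial UMIs were kept, which removed 418 healthy and 642 CCl4 cells by the mitochondrial limit and 17 CCl4 cells by the others. Scrublet scores (scanpy) removed a further 277 and 487 cells as doublets, at 0.8% per 1000 cells. Counts were scaled to 10000 per cell, and 2000 variable genes without the 11 fibrillar collagen genes, 10 principal components, 20 neighbours and Leiden resolution 1 defined the clusters. Clusters were named from markers of 14 classes: a marker counted at 2-fold over all other cells and in at least 10% of the cluster, and a name needed 3 and no rival among the 10 leading genes. Stellate-like, fibroblast-like and the Tagln-led cells, whose markers were stellate, smooth muscle and fibroblast, were pooled as mesenchymal-like, and a B cell cluster whose leading genes included plasmacytoid dendritic ones joined the reference. Rebuilt names can differ from those of the study. The members and gene lists were chosen with earlier results of these data known.

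UMIs were summed per class and library. CPM and UMIs per droplet have exact Poisson intervals, ratios exact conditional binomial ones and shares Clopper-Pearson ones, at 95%. They cover counting error only. A count of 0 was limited at 3 counts. A gene counted as higher or lower at a ratio of 2 or 0.5, with lower counts raised to 3, among genes whose higher CPM exceeded that of 3 UMIs. Having 1 library in each group, the data allowed no p-value. Named genes were the 6 members in every class of 20 cells, the highest and lowest ratios of each list, and the 5 genes most like Col1a1, Col3a1 and Col5a3 among those with at least 100 UMIs. In the mesothelial-like comparison the further list genes named were those past a threshold. The interval code was tested on simulated data. The analysis ran in python 3.11.15 (matplotlib 3.10.9, igraph 0.11.9, pandas 2.3.3, scipy 1.17.1, numpy 2.4.6, anndata 0.12.19 and scanpy 1.11.5), and TMM factors came from edgeR 4.0.16 in R 4.3.3.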

Additional observations from a re-analysis of the deposited data

Results flagged for a closer look

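Droplets that the filters removed were not used in any comparison above, and in the CCl4 library they carried more collagen UMIs than in the healthy one. The 487 CCl4 droplets with the highest doublet scores held 161 UMIs of the 6 genes each on average (median 126, highest 929), against 1.58 in the 277 healthy droplets removed in the same way. The 642 CCl4 droplets over the mitochondrial limit held 16.9 each (median 5.5, highest 341), against 0.170 in 418 healthy ones. Relative to all UMIs, the 6 genes were 9033 CPM in the CCl4 droplets removed by doublet score and 10398 CPM in those over the mitochondrial limit. The CCl4 cells that were kept had 8783 CPM. In the healthy library the values were 142 and 36.6 CPM, against 146 CPM in the cells kept.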

How the results depend on the processing

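No paired analysis was possible because the groups share only 1 replicate number and have 1 library each. Leaving out a library was likewise impossible. The direction of 2 values changed: the hepatocyte-like over reference ratio of member UMIs was 1.66 as a share of UMIs, and the mesothelial ratio of Col3a1 was 1.28 with doublets kept.

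The share of CCl4 member UMIs in mesenchymal-like cells (92.6%) was 95.4 with a mitochondrial limit of 10%, 83.6 with doublets kept, 94.4 with at least 1000 UMIs per cell, 85.2 with 30 principal components, 92.2 at resolution 2, 87.2 with the members kept among the clustering genes and 96.0 with unnamed clusters counted under the class with the most markers. In the order of the same alternatives, the level in these cells was 11185, 11775, 11603 and 11412 CPM, then 11863 with the members kept and 11613 with unnamed clusters counted. It was 11674 CPM with the members out of the total, 15552 with the 50 most abundant genes out, 12211 with every cell weighing the same and 11392 with TMM. In the mesothelial comparison, leaving out the 50 most abundant genes shifted every log2 ratio alike by 0.14, and leaving out the members or using TMM by less. The reference held 2.34 UMIs per droplet at the 10% limit, 11.9 with doublets kept, 3.32 with at least 1000 UMIs, 3.27 with 30 components, 3.33 with all immune-like cells, 5.57 in the 14 endothelial-like cells and 2.16 without droplets over 10 member UMIs. Its share of droplets with a UMI was 43.2% thinned to 1000 and 27.2% thinned to 500 UMIs. The hepatocyte-like ratio was 0.912 at the 10% limit, 0.393 with doublets kept and 0.934 without droplets over 10 member UMIs, and had no value with 30 components, where the low-UMI hepatic cluster was left unnamed. Col3a1 made up 59.8%, 59.4% and 59.9% of mesenchymal-like member UMIs at the 10% limit, with doublets kept and with 30 components. The unnamed-cluster, large-droplet (in every value given without them) and cluster 9 alternatives were chosen after seeing the data. The share of the healthy member UMIs in mesothelial-like cells stayed within its counting interval in the alternatives run.

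Counts limit the rarest members most: Col5a3 had 40 healthy UMIs in all, and the healthy mesenchymal-like values rest on 12 cells. The number of mice behind each library is not given, and cells of a library are no replicates.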

Other observations

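In the unnamed cluster 4 of the healthy library (46 cells, with endothelial markers) Col1a2 had 21 UMIs and Col1a1 8, a ratio of 0.381 [0.146, 0.895] Col1a1 UMIs per Col1a2 UMI. This was the only healthy cluster of at least 20 cells in which Col1a2, at 33.4 CPM, was the most counted member.

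The healthy cells of the unnamed cluster 11, 14 in number, had 1251 CPM of Col3a1 [1030, 1506], 715 of Col1a1 and 313 of Col1a2 [208, 452], and Col1a2 was thus at about the level of the 857 CCl4 cells of the same cluster (297 CPM [273, 324]) while Col1a1 was 715 against 5352 CPM. This pair of values was not compared by a test, and 1 library stands behind each.

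Col27a1 had 148 CPM [110, 195] in the 169 healthy cells of the unnamed cluster 7, which had 7 cholangiocyte markers, where the members gave 5.81 CPM of Col3a1 and 2.90 of Col5a2 and no UMI of the others.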
